A study of Mus musculus with 2 samples.

Results

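The genes described here encode the proteins of the cytosolic ribosome. They were taken by symbol from the platform annotation: genes named Rpl or Rps with a number and at most a short suffix, Rplp0 to Rplp2 and Rpsa, on probe sets with exactly 1 gene symbol. This gave 47 of 12393 named genes, carried by 99 of 22626 probe sets, with 26 genes of the large subunit and 21 of the small. Each gene was represented by its brightest probe set, judged by the mean log2 signal of the pools. All 47 were found by gene number in the RefSeq gene table, which lists 46 as protein coding and Rps4l as a transcribed pseudogene. The array also carried 102 probe sets on which a symbol of this family stood beside other symbols, and 27 genes of the family occurred only there and are not among the 47.

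Liver RNA came from male apolipoprotein E-deficient mice, 2 months old in both pools, whose strain is labelled C57BL/6J/ OLA129. In the squalene pool, the chow-fed animals drank a glycerol solution that supplied squalene at 1 g/kg/day for 10 weeks. In the control pool, chow-fed animals drank 1% (v/v) glycerol alone for the same 10 weeks, and the deficiency is shared by both pools. Each pool was read on 1 Affymetrix array, how many animals were pooled is not known here, and no test between the pools was possible.

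A ribosome joins a small subunit, which reads the mRNA, to a large subunit, which forms the peptide bond, and each holds ribosomal RNA and many small basic proteins. The genes for these proteins are expressed in nearly every cell and are known for being controlled as a set, because their mRNAs begin with a run of pyrimidines, the terminal oligopyrimidine (TOP) tract, through which growth signalling by the kinase mTOR sets their translation. Hepatocytes, which secrete most plasma proteins, hold these mRNAs in abundance. The genes also left many processed pseudogenes, and the array's probe set suffixes mark how far a probe set may be shared. The suffix _at is plain, _a_at may bind several transcripts of a gene, and _s_at and _x_at may also bind transcripts of other genes.

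The first bases of transcription are shown for some members because the TOP tract lies there. Windows of 30 bases, 15 before the annotated start and 15 from it onward, were read from RefSeq promoters of build GRCm38.p6, 5′ to 3′ on the transcribed strand. Capitals mark the longest run of C and T that begins with a C within 5 bases of the annotated start and spans at least 5 bases. Rpl35, Rplp2, Rps18 and Rps26 read below 0 in the comparison of squalene over control, Rpl7a, Rps6 and Rpl27a read above 0, and Rpl41 had the lowest ratio among the bright members.
Rpl35 (chr2:39005117-39005146, minus strand): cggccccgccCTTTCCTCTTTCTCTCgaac
Rplp2 (chr7:141447636-141447665, plus strand): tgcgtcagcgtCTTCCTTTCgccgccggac
Rps18 (chr17:33955651-33955680, minus strand): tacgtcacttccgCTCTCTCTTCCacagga
Rps26 (chr10:128626492-128626521, minus strand): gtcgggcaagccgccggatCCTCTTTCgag
Rpl7a (chr2:26910792-26910821, plus strand): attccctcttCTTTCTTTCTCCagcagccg
Rps6 (chr4:86857353-86857382, minus strand): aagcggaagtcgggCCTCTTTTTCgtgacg
Rpl27a (chr7:109519180-109519209, plus strand): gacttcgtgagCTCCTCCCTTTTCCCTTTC
Rpl41 (chr10:128549154-128549183, minus strand): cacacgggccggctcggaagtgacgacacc
The run of Rpl35 had 16 bases, that of Rpl7a 12 and that of Rps6 10. That of Rpl27a had 20 and went on past the window, and the window of Rpl41 held none. Most windows shown hold a run, while 21 of the 41 members with a promoter had none at an annotated start. In Rpl35 and Rpl7a, C and T also stood directly before the marked run, outside the 5 bases, and were not counted.

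Promoters were found for 41 of the 47 genes, and 20 of these (48.8%) had such a run at an annotated start, against 23.4% of 9882 genes of the array and 24.6% of 65 mitochondrial ribosomal protein genes. A match describes these letters only, and an annotated start need not be the one used in liver. Over the members with a mean signal of at least 1000, the 15 with a run had a median log2 ratio of -0.22 (from -0.40 to 0.14) and the 16 without one a median of -0.16 (from -0.81 to 0.07), so the groups overlapped. The letters CCGGAAG, which fit the motif of ETS factors, stood on either strand of the promoter, from 250 bases before the start to 50 after it, in 20 of the 41 genes (48.8%) and in 16.4% of array genes. AAGATGG, the core letters of the YY1 motif, stood in 7 (17.1%) and in 7.86%, and TATAAA in 6 (14.6%) and in 11.9%. Of the 65 mitochondrial ribosomal protein genes, 24 (36.9%) held the ETS letters, 12 (18.5%) the YY1 letters and 5 (7.69%) the last-named letters. The YY1 letters were thus no more frequent in the members than in the mitochondrial ribosomal protein genes.

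Ribosomal protein genes read slightly lower in the squalene pool as a set on the authors' scale, and the sign of that shift depended on the scale. Of the 47 genes, 37 (78.7%) had a log2 ratio of squalene over control below 0, beside 48.6% of all named genes, and their median was -0.18, beside 0.01 over all named genes. Scaling to the hybridization spike-ins, whose 18 probe sets were all lower on the squalene array (median -0.26), would raise every ratio by 0.26, giving the members a median of 0.08 and all genes one of 0.27. Relative to the median of all named genes the members stood at -0.19 under both of these scales, at -0.08 after quantile normalization and at -0.10 after loess. On these 4 scales, 38, 38, 31 and 34 of the 47 lay below the median of all genes.

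Past a log2 ratio of 0.5, a limit chosen for counting, 5 members were lower (Rps4l, Rpl3l, Rpl39l, Rpl41 and Rpl22) and 2 higher (Rpl12 and Rpl14), with 40 between. Over all named genes 19.8% were lower and 21.5% higher by that limit. Past the submitters' screen of 1.5, the 3 paralogues Rps4l, Rpl3l and Rpl39l were lower and 0 members higher, beside 7.3% and 7.86% of all named genes. At a limit of 0.25, 16 members were lower and 3 higher, beside 29.7% and 32.7% of all named genes, and at 1.0, 3 were lower and 1 higher, beside 11.1% and 11.9%. Rps4l, Rpl3l and Rpl39l had both signals below the array median, which was 41.4 in the squalene and 39.9 in the control pool. Genes whose signal reached the array median in each pool are called read in both pools, and 42 members were. Of these 34 lay below 0, 2 (Rpl41 and Rpl22) were lower past 0.5 and 0 higher. Among all 6459 named genes read in both pools, 48.8% lay below 0, 6.35% were lower and 7.85% higher past 0.5. Past 1.5 stood 0 of the 42 members, beside 0.0464% lower and 0.0774% higher of those 6459 genes.

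**Figure D1:**
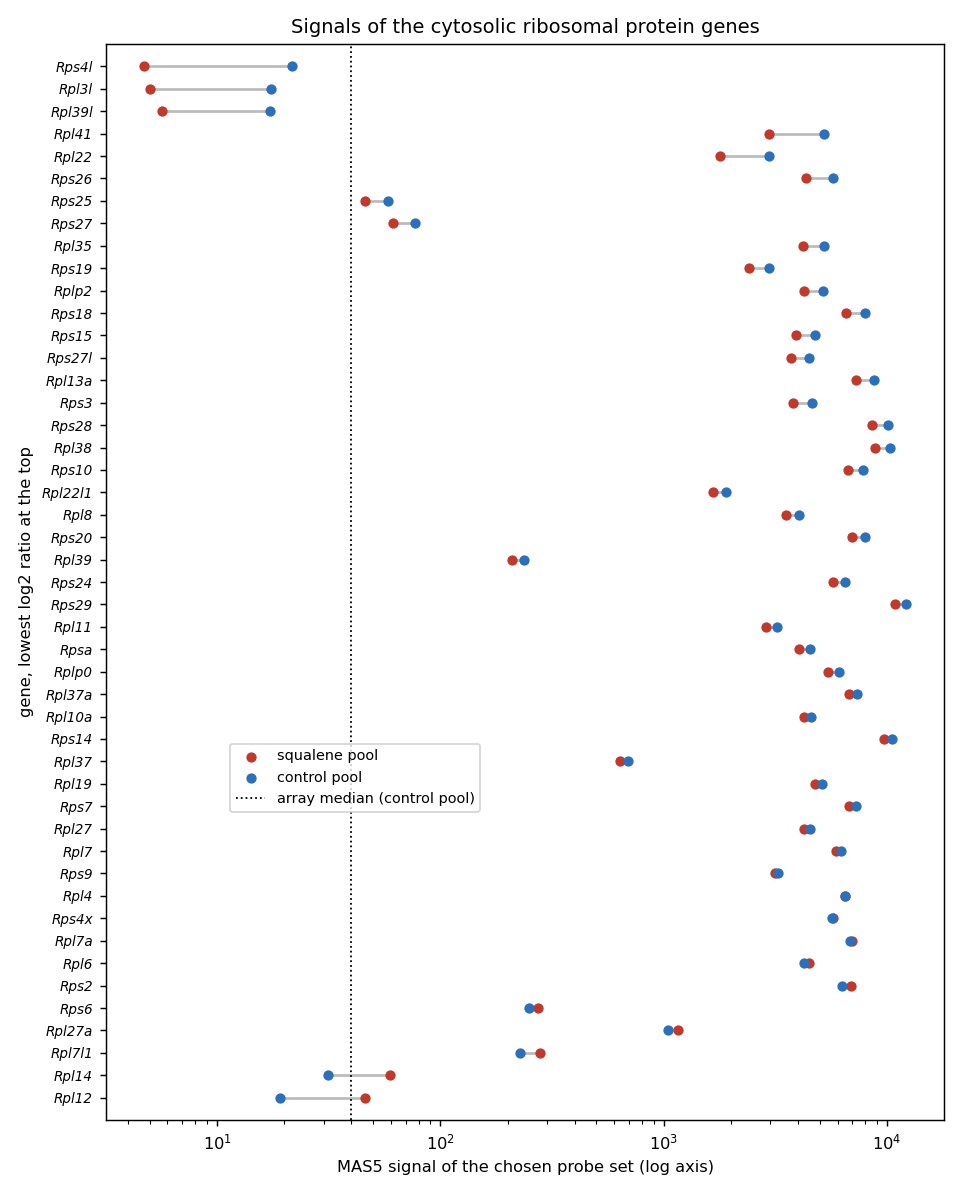
Signals of the 47 genes on a log axis, 1 row per gene, with the squalene pool in red, the control pool in blue and a line joining them; the dotted line is the control array's median of 39.9. Most rows form a column of bright pairs in which the squalene point lies slightly left of the control point, and 3 dim pairs at the top and 2 at the bottom hold the widest gaps.

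Most members were bright, and bright genes of other families also read lower in the squalene pool on the deposited scale. Of 36 members with a geometric mean signal of at least 1000, 30 lay below 0 (83.3%), with a median of -0.17. Of 912 other named genes that bright, 59.1% lay below 0, 3.18% were lower and 2.19% higher past 0.5 and 0.11% each way past 1.5, with a median of -0.04. Among the bright members, 2 were lower past 0.5 and 0 lay past 1.5. The brighter the other genes, the lower their median: -0.02 over 427 genes with a mean signal of 1000 to 2000, -0.03 over 267 of 2000 to 4000, -0.06 over 125 of 4000 to 8000, and -0.10 over 93 brighter ones.

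Within the same bands the members read -0.24 over 6 genes of 2000 to 4000, -0.16 over 24 genes of 4000 to 8000 and -0.20 over the 4 brightest, each below the other genes of its band. The lowest band held 2 members, with a median of -0.03. Between bright members and bright other genes the difference of medians was -0.13 as deposited and after spike-in scaling, -0.09 after quantile normalization and -0.10 after loess. Below the median of the bright other genes lay 29 of the 36 as deposited, 26 after quantile normalization and 28 after loess. For scale, probe sets of the same member differed with an SD of 0.13 over 48 bright probe sets of 17 genes. That SD belongs to single probe sets and holds no spread between animals or arrays, so it does not show whether a shift of this size would recur.

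**Figure D2:**
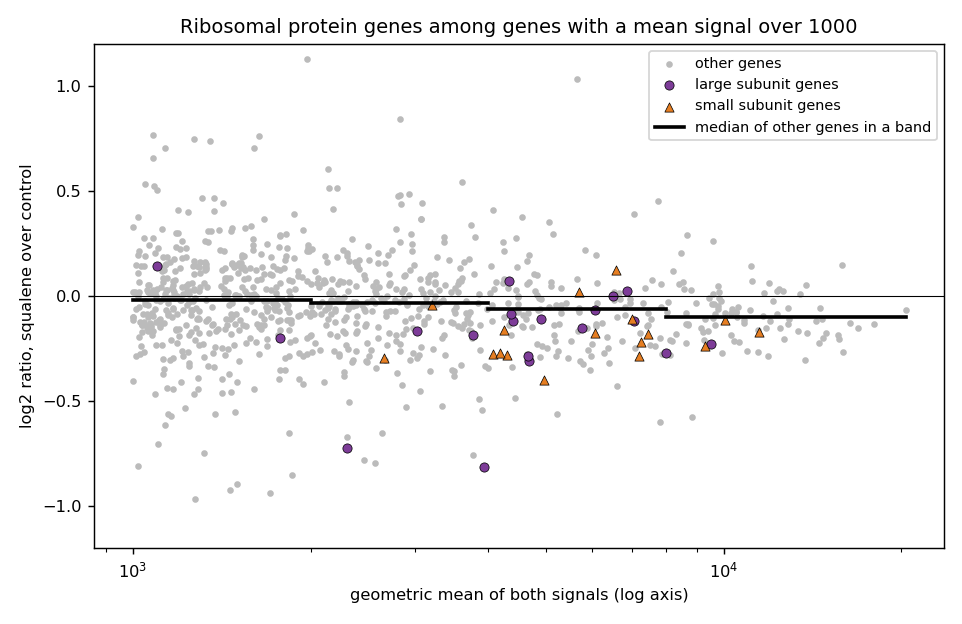
Log2 ratio of squalene over control against the geometric mean of both signals (log axis) for genes with a mean signal of at least 1000 on the deposited scale, with other genes in grey, large subunit genes as circles and small subunit genes as triangles; 5 other genes lie beyond the vertical axis. Black bars are medians of the other genes in 4 signal bands, stepping down to -0.10, and most members lie below the bar of their band; spike-in scaling would lift every point by 0.26.

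The stalk of the large subunit recruits the GTPases of translation and is built from Rplp0 and dimers of Rplp1 and Rplp2. Rplp0 read 5460.9 in the squalene pool and 6076.2 in the control pool on a plain probe set, a log2 ratio of -0.15. Rplp2 read 4226.7 in the squalene and 5152.9 in the control pool (-0.29). Both stalk genes were thus slightly lower in the squalene pool as deposited, and after spike-in scaling Rplp0 would lie above 0 and Rplp2 still below. Rplp1 had no probe set with a single symbol. Rpl11, which joins the ribosomal RNA of the central protuberance and can bind the ubiquitin ligase Mdm2, read 2858.2 in the squalene and 3209.9 in the control pool (-0.17).

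Rpl41 and Rpl22 stood apart from the other bright members. Rpl41, which encodes a very short, basic peptide of the large subunit, read 2966.7 in the squalene pool and 5210.6 in the control pool, 1.76-fold lower with squalene (-0.81). Its second bright probe set read 2166.4 and 2783.4 in those pools (-0.36). The remaining ones were dim, at 38.5 and 86.1 (-1.16) and, on the plain one, at 30.4 and 28.8 (0.08). Its size thus differed more than 2 times between its bright probe sets, while their direction was the same.

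Rpl22, an RNA-binding protein that ribosomes can do without and that mouse T cell development needs, read 1795.3 in the squalene pool and 2961.4 in the control pool on its plain probe set, 1.65-fold lower (-0.72). A probe set with the suffix _s_at read 189.2 in the squalene and 196.9 in the control pool (-0.06). The lower value of Rpl22 thus rests on 1 probe set. Its paralogue Rpl22l1, which mouse cells lacking Rpl22 are known to express more, read 1656.7 and 1902.6 (-0.20), lower by less than Rpl22.

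Other large subunit genes lay close together. Rpl35, at the exit of the peptide tunnel, read 4214.5 in the squalene and 5222.7 in the control pool (-0.31), and its 5 bright probe sets ran from -0.31 to 0.03. Rpl13a, which in human and mouse cells can leave the ribosome to silence inflammatory mRNAs, read 7262.3 and 8773.7 (-0.27). Rpl38, which in mouse embryos is needed for translation of Hox mRNAs, read 8790.7 and 10281.5 (-0.23). These 3 were lower in the squalene pool as deposited, and after spike-in scaling Rpl38 would lie above 0.

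Several large subunit genes read alike in the pools or higher in the squalene pool. Rpl7a read 6929.1 in the squalene and 6808.4 in the control pool (0.03). Rpl6 read 4448.7 and 4228.4 (0.07), and Rpl27a 1153.2 and 1046.0 (0.14) on its bright probe set, with a second near the floor at 1.1 and 13.5. Rpl12 (46.1 in the squalene and 19.1 in the control pool, 1.27) and Rpl14 (59.2 and 31.3, 0.92) had the highest ratios of all members, but their control signals lay below the array median. Both were read on plain probe sets, and signals so near the median do not place these genes.

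Small subunit genes read lower in the squalene pool on the deposited scale, with an SD of 0.15 over the 20 read in both pools, beside 0.24 over 22 of the large subunit. Rps26, which lines the channel where mRNA leaves and is mutated in human Diamond-Blackfan anaemia, read 4318.4 in the squalene and 5696.6 in the control pool (-0.40). Rps19, the gene most often mutated in that anaemia, read 2399.4 and 2945.7 (-0.30). Rps3, at the mRNA entry, read 3807.1 and 4598.0 (-0.27). These 3 would stay below 0 after spike-in scaling.

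The brightest small subunit probe sets gave ratios from -0.24 to -0.11. Rps29 read 10841.0 in the squalene and 12192.8 in the control pool (-0.17), and its 3 probe sets ran from -0.21 to -0.17. Rps14 read 9686.6 and 10470.1 (-0.11), and Rps28 read 8581.1 and 10120.1 (-0.24). Rps20 read 6995.6 and 7936.6 (-0.18). All 4 lay below 0 as deposited and above it after spike-in scaling.

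Rpsa, which doubles in the literature as a laminin receptor, read 4021.1 in the squalene and 4494.2 in the control pool (-0.16) on a plain probe set. Rps6, the substrate by which growth signalling is usually followed, read 272.8 and 248.9 (0.13), and a second probe set was near the floor at 14.9 and 1.4. Rps2 was the bright small subunit gene with the highest ratio, at 6879.0 in the squalene and 6308.9 in the control pool (0.12). Rps25 (46.0 and 58.0, -0.33) was read only just above the array median. Only mRNA was measured, so the Rps6 value says nothing of its phosphorylation.

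The subunits overlapped. The 26 large subunit genes had a median of -0.14, with 19 below 0, and the 21 small subunit genes a median of -0.22, with 18 below 0. The large minus small difference was 0.08, and 0.03 over the 19 and 17 bright genes. It was -0.03 over plain probe sets only. In the large subunit 22 genes read in both pools ranged from -0.81 to 0.29, and in the small subunit 20 such genes ranged from -0.40 to 0.13.

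Paralogues of ribosomal protein genes, whose symbols end in l or l1, fell into a dim group and a group read well above the array median. Rpl3l, the form of Rpl3 in heart and skeletal muscle, read 5.0 in the squalene and 17.5 in the control pool. Rpl39l, known from testis, read 5.7 and 17.2, and the pseudogene Rps4l 4.7 and 21.7. These signals are under the array median in both pools, so their ratios of -1.81, -1.59 and -2.21 compare readings near the floor. Of their parent genes, Rpl39 read 208.8 in the squalene and 236.8 in the control pool (-0.18) and Rps4x, the X-linked parent of Rps4l, 5741.9 and 5665.2 (0.02). Rpl3 had no probe set with a single symbol.

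The other 3 paralogues were read well above the median. Rps27l, known in human cells as a target of the tumour suppressor p53, had 3 bright probe sets, of which the chosen one read 3710.4 in the squalene and 4486.2 in the control pool (-0.27), and the others -0.29 and -0.37. Its parent Rps27 read 61.2 and 77.1 (-0.33) on its only named probe set. Rpl7l1 read 279.4 and 228.0 (0.29), but -0.11 on its other probe set. Its parent Rpl7 read 5933.7 and 6206.5 (-0.06), another probe set gave the same, and one more read 1777.6 and 1227.0 (0.53). Rpl7l1 thus had the highest ratio among the members read in both pools. The ratio of Rps27l was close to its parent's, but the signals of Rps27 lay only a little above the array median, which limits that comparison.

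Bright probe sets of the same member mostly lay close together, with exceptions. Their ratios spanned 0.60 in Rpl7, where 1 of 3 bright probe sets had the opposite sign, 0.45 in Rpl41 and 0.34 in Rpl35. Of 23 genes with several probe sets, 19 had at least 2 read in both pools, and in 2 of these, Rpl22 and Rpl7, the ratios lay more than 0.5 apart. With dim probe sets included the count was 10, adding Rpl41, Rpl35, Rpl27a, Rps18, Rps20, Rps24, Rps6 and Rpsa. The bright probe sets of Rps18 ran from -0.30 to -0.17, while its 3 dim ones read from -3.39 to 1.05. In 13 of the 17 genes with at least 2 bright probe sets, all of those lay below 0. The SD between probe sets of a gene was 0.13 in bright members and also 0.13 in 217 bright other genes.

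**Figure D3:**
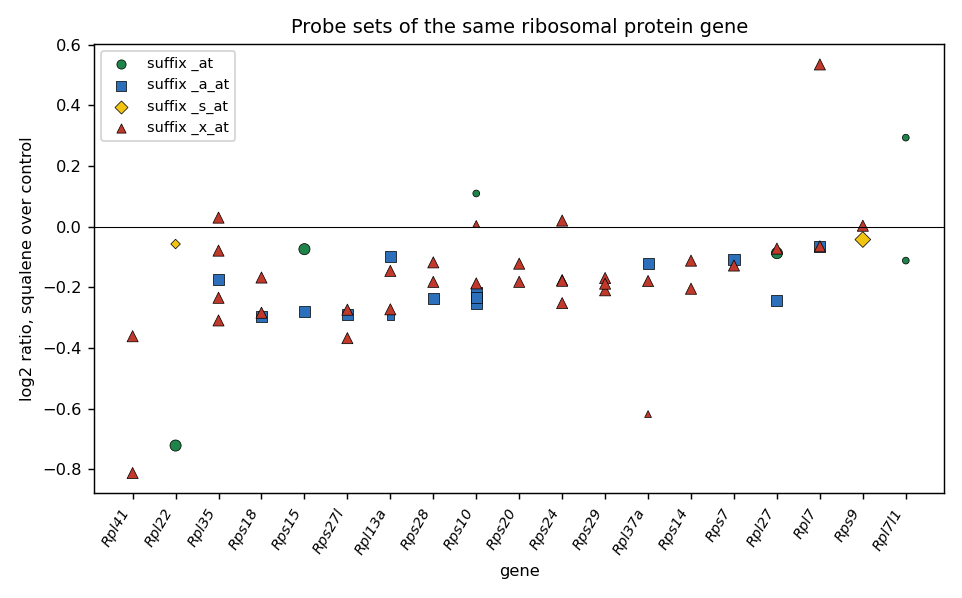
Log2 ratio of squalene over control, on the deposited scale, for each probe set read in both pools, in the 19 members with at least 2 of them; colour and shape give the suffix, and large symbols have both signals of at least 1000. Most symbols lie between -0.3 and 0, and Rpl41, Rpl22, Rpl37a, Rpl7 and Rpl7l1 hold the points farthest from that range; spike-in scaling would lift every point by 0.26.

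Plain probe sets were more often dim than the others. Of the 30 plain _at probe sets, 14 had both signals below the array median, against 3 of the 69 with another suffix. The 30 plain ones had a median of -0.11 with 18 below 0, the 27 with _a_at a median of -0.20 with 22 below 0, the 40 with _x_at a median of -0.18 with 33 below 0, and the 2 with _s_at one of -0.05. Over all probe sets of the array the same classes had medians of 0.05, 0.00, 0.00 and 0.02. All 4 member medians would lie above 0 after spike-in scaling.

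Among bright probe sets the class medians were almost the same as over all member probe sets. They were -0.11 over 7 plain ones, -0.20 over 25 with _a_at and -0.18 over 34 with _x_at. All bright probe sets of the array had medians of -0.04, -0.08 and -0.09 in those classes. Genes with both kinds allowed a look within a gene. Rps15, whose tail reaches the decoding site, read -0.07 on its plain probe set and -0.28 on the _a_at one. Rpl27 read -0.09 on the plain, -0.07 on the _x_at and -0.25 on the _a_at probe set. Rps10 read 0.11 on a plain probe set close to the array median, and the median of its 5 others was -0.22. Rpl22 went the other way, with -0.72 on the plain and -0.06 on the _s_at probe set. These 4 genes are all that had both kinds read in both pools. In 3 of them the plain probe set had a higher ratio than the median of the gene's other probe sets. In Rpl27, 1 of these 3, the plain one still lay slightly below the _x_at one.

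Probe sets that carried several symbols could not be tied to 1 gene, and most of them also lay below 0 as deposited. Of 76 bright ones with a symbol of this family, 68 (89.5%) lay below 0, with a median of -0.15 and a range from -0.46 to 0.24. Of the 1368 bright probe sets outside the family, 59.3% lay below 0, with a median of -0.04. They were not used to choose the 47 members. Of 11 members with a mean signal under 1000, 7 also occurred on such probe sets, and in all 7 the signal there was higher. For these genes the chosen probe set was thus not the brightest one that carried the symbol.

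Other genes of translation did not share 1 direction. Of the further subunit genes, Rps3a1 read 6916.6 in the squalene and 8122.8 in the control pool (-0.23) and Fau, which encodes a ubiquitin-like fusion with a small subunit protein, 3621.3 and 3818.0 (-0.08). The 74 mitochondrial ribosomal proteins, which serve the separate ribosome of mitochondria, were all read in both pools. Their median was -0.08, with 49 of the 74 below 0, beside 48.8% of all named genes so read. Past 0.5, 3 were lower and 2 higher, beside 6.35% and 7.85% of those named genes. The lower ones were Mrpl45 (-0.58), Mrpl41 (-0.56) and Mrpl11 (-0.55), and of the higher ones Mrps30 read 0.62. Other probe sets read in both pools gave -0.23 for Mrpl41, and -0.10 and 0.15 for Mrpl11. After quantile normalization and loess that list stood at -0.12 in both, against -0.09 and -0.12 for the cytosolic genes, so the order of the lists rested on the scaling.

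The list of elongation factors, several of which carry TOP tracts themselves, also held the termination factors Etf1 and Gspt1. Its median was -0.08 over 8 genes, with 6 below 0. The 2 above 0 were Etf1 (0.05) and Gspt1. Eef1e1 (-0.29), Gspt1 (0.16), Eef1d (-0.13) and Eef1b2 (-0.13) had the widest ratios, with -0.04 on a second probe set of Gspt1 and -0.13 on one of Eef1d. Eef1a1, the carrier of aminoacyl-tRNA, read 11514.6 in the squalene and 12508.1 in the control pool (-0.12). Other genes with TOP mRNAs had a median of 0.04 over 12, with 5 below 0: Tpt1 read -0.30, Pabpc4 -0.28, Btf3 0.23 and Hnrnpa1 0.53. A second probe set read in both pools gave 0.56 for Pabpc4, against its first, 0.13 for Btf3 and 0.27 for Hnrnpa1, and dim ones gave 0.60 for Tpt1, 1.47 for Btf3 and -0.96 for Hnrnpa1. Initiation factors had a median of 0.01 over 29 genes, all read in both pools. Past 0.5, 0 were lower and 3 higher, beside 6.35% and 7.85% of all named genes read in both pools. Of those named genes, 48.8% lay below 0. The 3 higher ones were Eif5b (0.84), the cap-binding Eif4e (0.54) and Eif2b5 (0.51), and Eif2b1 read 0.35. A second probe set gave -0.05 for Eif5b and 0.42 for Eif4e.

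Ribosome biogenesis factors, which process ribosomal RNA and assemble subunits in the nucleolus, stood on the other side of the median gene. Of 44 with a probe set, 29 lay above 0, with a median of 0.26, 7 higher and 1 lower past 0.5. Over the 40 read in both pools the median was 0.22, with 6 higher and 0 lower, beside 7.85% and 6.35% of all genes read that way. Gtpbp4, a nucleolar GTPase, read 453.9 in the squalene and 284.0 in the control pool (0.68), Nop58, a core protein of box C/D particles, 88.1 and 58.1 (0.60), and the small subunit assembly factors Wdr75 163.7 and 109.0 (0.59) and Wdr43 203.1 and 136.1 (0.58). The median signal of this list was 135, where probe sets of the same gene differ more than in the bright range: other probe sets of Gtpbp4 read -0.05 and 0.88, and that of Wdr43 -0.32. Relative to all genes the list stood at 0.25 as deposited and at 0.23 after quantile normalization and after loess. Its median was 0.14 when each gene's probe set of smallest absolute ratio was taken. It was 0.088, about 3 times smaller, over genes that passed a filter at the 75th percentile of signal.

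Genes of RNA polymerase I and of growth signalling were few and scattered. The 15 polymerase genes had a median of -0.09, or 0.04 over the 11 read in both pools, with Polr1a, the largest subunit, at -0.57, Taf1a at 0.54, Taf1d at 0.44 and Polr2h at 0.38. Dim probe sets of Polr1a gave -0.35 and 0.87. The 17 signalling genes had a median of 0.05. Tsc2, a brake on mTOR, read 126.1 in the squalene and 79.0 in the control pool (0.67), Mtor itself 181.4 and 134.1 (0.44, but -0.39 on its other probe set), and the kinases Mknk2 0.44 (1.04 on its other probe set) and Mknk1 0.43 (-0.61 and 0.36 on dim ones). Larp1, which binds TOP mRNAs, read 388.5 and 352.7 (0.14).

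**Figure D4:**
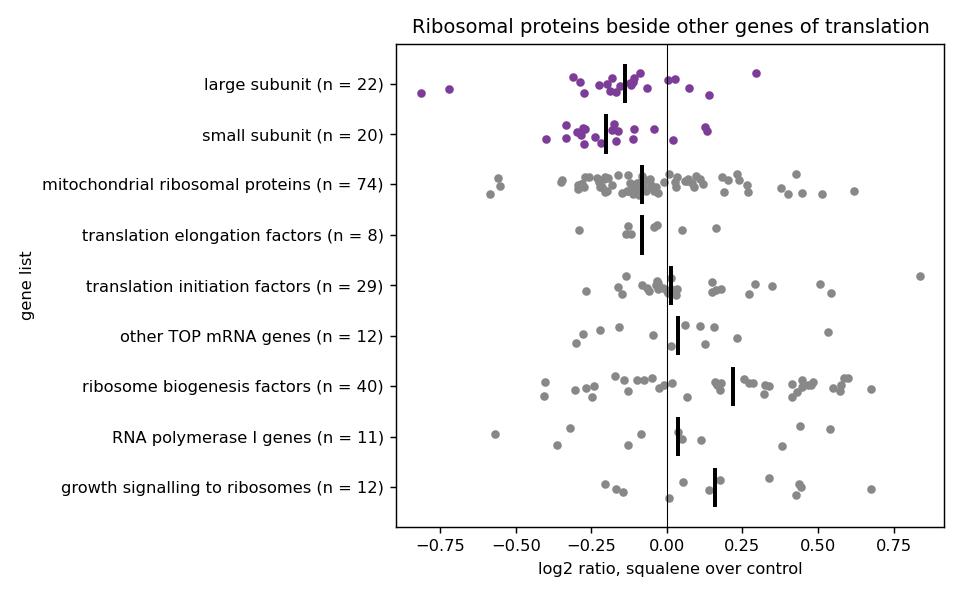
Log2 ratio of squalene over control on the deposited scale for genes read in both pools, 1 point per gene and 1 row per list, with a black bar at each median; ribosomal protein genes are in purple at the top. The 2 ribosomal rows centre at -0.14 and -0.20 and the biogenesis factors at 0.22; spike-in scaling would lift every point by 0.26 and put the ribosomal medians above 0.

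The RNA of both pools read as liver, with Alb at 14625.1 in the squalene and 16656.0 in the control pool (-0.19) and the 5 hepatocyte markers at a median of -0.06. Macrophage markers also read lower in the squalene pool. Of the 10, 10 lay below 0 and 7 were lower past 0.5, beside 48.6% and 19.8% of all named genes. Among the 9 read in both pools, 6 were lower past 0.5, beside 6.35% of all named genes read that way. The summed signal of the 10 markers was 4404.4 in the squalene and 6764.2 in the control pool. Of 6 T and NK cell markers 2 lay below 0 and 4 above, with a median of 0.53. Their summed signal was 57.6 in the squalene and 83.1 in the control pool, but 54.7 and 37.3 without Klrk1, which read 2.9 and 45.8. Sums were 53.0 and 69.5 over 3 B cell markers, of which 2 lay below 0, and 106.6 and 134.8 over 3 erythroid markers, of which 2 lay below 0, with 32.7 and 32.2 without Alas2. Sums were 420.6 and 467.2 over 5 endothelial markers and 2532.4 and 2693.4 over 5 stellate cell markers, with 3 of 5 below 0 in each list. The lymphocyte markers Cd3e, Cd79a and Ms4a1 were below the array median in both pools, and 0 of the T, NK and B cell markers reached it in both. Actin probe sets gave a 3′ over 5′ ratio of 2.48 in squalene RNA and 2.80 in control RNA, and Gapdh probe sets 0.678 and 0.690. The part of these differences in the ribosomal values was not tested, and in pooled tissue fewer cells of a type and less RNA per cell cannot be told apart.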

How the data were processed

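The authors deposited 1 linear intensity per probe set and array, made with MAS5 per the submitters' processing notes; neither software version nor scaling is stated there, and detection calls were not used. The depth of an array is not a count, and having 1 array per pool limits the precision. Symbols came from the platform annotation, with 20380 probe sets holding a single symbol, 691 several and 1555 none; 64 array controls were left out. The log2 ratio of squalene over control was taken without a pseudocount or filter. Signals of different probe sets serve to choose probe sets and to class them as bright or dim, and are not compared as levels of genes. With 1 array a group no p-value was computed, and counts and medians are descriptions. The members and lists were chosen with earlier results of these data known. Named genes are the 8 lowest and 8 highest members read in at least 1 pool, the 6 brightest, the stalk and a few well-known members, paralogues with their parents, members whose probe sets lie more than 0.5 apart, and up to 4 genes of each other list with the widest ratios; Rps3, Rps15, Rps18, Rpl27, Rpl37a, Rps10, Eef1a1, Larp1, Klrk1 and Alas2 were added after their values were seen. Bands of signal and the level of 1000 were also chosen after seeing the data. Alternatives were filters, a floor, centring, spike-in scaling, quantile normalization, loess (limma 3.58.1, R 4.3.3), a pseudocount of 3, other probe set choices and other limits. Other steps used Python 3.11.15, numpy 2.4.6, pandas 2.3.3 and matplotlib 3.10.9, and the counting was tested on simulated data.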

Additional observations from a re-analysis of the deposited data

How the results depend on the processing

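A median counted as moved when it shifted by at least 0.17, the SD between probe sets of a member read in both pools. The median of the ribosomal protein genes stayed below 0 under 15 alternatives, from -0.19 to -0.09. After spike-in scaling it was 0.082 with 16 genes below 0, beside a median of 0.27 over all named genes. With plain probe sets only, 14 of the 24 members that have one lay below 0, and the large minus small difference was -0.034. Of all plain probe sets of the array, counted per probe set rather than per gene, 46.1% lay below 0. The suffix medians after spike-in scaling were 0.15 (_at), 0.059 (_a_at), 0.21 (_s_at) and 0.080 (_x_at). With floored signals that of _at was 0.051, which is the ratio of the floors, as it was for Rpl39l, Rpl3l, Rps4l, and the T and NK, B and erythroid markers. Rpl41 read 0.078 on its plain probe set, which also had its smallest absolute ratio.

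Lower members past the limit numbered 2 with each filter on signal, with floored signals, over a mean signal of 1000 and without paralogues. They numbered 3 with the smallest absolute ratio and 1 with other suffixes only. Past the same limit 6.35% of all named genes read in both pools were lower, and 3.18% of other genes over a mean signal of 1000. Higher members numbered 0 when both pools, the 75th percentile, a mean signal of 1000 or other suffixes were required, and 1 with the floor. Of all named genes read in both pools 7.85% were higher, and of other genes over a mean signal of 1000, 2.19%. Shares over all genes are not given here for the other filters, the floor or the other probe set choices. At limits of 0.25, 1.0 and 1.5, 16, 3 and 3 were lower and 3, 1 and 0 higher, beside 29.7%, 11.1% and 7.3% lower and 32.7%, 11.9% and 7.86% higher of all named genes.

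Spike-in scaling moved the list medians to 0.10 (further subunits), 0.18 (elongation), 0.27 (initiation), 0.30 (TOP), 0.52 (biogenesis), 0.17 (polymerase I), 0.31 (signalling), 0.18 (mitochondrial), 0.19 (hepatocyte), -0.42 (macrophage), 0.78 (T and NK), -0.55 (B), -0.21 (erythroid), 0.088 (endothelial) and 0.19 (stellate). Biogenesis factors read 0.088 when filtered by the 75th percentile, and -0.30 over a mean signal of 1000, where 1 gene was left. Macrophage markers read -0.48 there. With plain probe sets initiation factors read 0.22 and polymerase I genes 0.24, and with other suffixes signalling genes read -0.17, erythroid markers 1.53, endothelial -1.57 and stellate -0.71. Stellate markers read -0.39 with either median filter, -0.55 with the mean of probe sets and 0.24 with the smallest absolute ratio. T and NK markers read -3.98 when read in 1 pool or with other suffixes and 0.33 with a pseudocount. B markers read -0.49 with the smallest absolute ratio, and endothelial ones 0.017 with the floor. The causes were not tested. Of 595 values of single members, 514 moved by less than the SD and 48 changed sign. No paired analysis was possible because each group has 1 sample.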
